A study of Mus musculus with 34 samples.

Results

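Abca1 and Abcg1 encode the main exporters of cholesterol from macrophages. ABCA1 is a transporter of the plasma membrane that hands cholesterol and phospholipid to lipid-poor apolipoprotein A1. ABCG1 works as a dimer and passes cholesterol on to high-density lipoprotein. Both genes are classic targets of the liver X receptors (LXR), nuclear receptors that sense oxysterols, pair with retinoid X receptors (RXR) and bind a repeated AGGTCA motif with a short spacer. Kupffer cells, the resident macrophages of the liver, take up lipoproteins and dying cells and so carry a large sterol load.

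The loci were read as the 82 deposited regions, of 179685 in 2 tables, whose nearest annotated gene was Abca1 or Abcg1 and whose centre lay within 100 kb of its start. The liver table (monocytes and liver macrophages) held 25 Abca1 and 18 Abcg1 regions, and the table of bone marrow-derived macrophages (BMDM) held 21 and 18. Peaks of 12 factor lists that overlapped these regions were added and merged into 29 sites at Abca1 and 20 at Abcg1. Each region spans 2000 bp of mm10. Of these liver regions, 19 of 25 at Abca1 and 10 of 18 at Abcg1 overlapped another of the same gene, leaving 12 separate runs at Abca1 and 11 at Abcg1, so neighbours share tags and are not independent. The gene name of a region is that of the nearest start and says nothing of the gene it acts on.

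The study applied chromatin immunoprecipitation and sequencing (ChIP-seq) to mouse cells, with 2 libraries per group; whether these came from separate animals is not stated, so p-values measure the spread between libraries, which may be technical. Histone H3 acetylated at lysine 27 (H3K27ac), found at promoters and enhancers in use, was profiled in Ly6C-high monocytes from the blood of untreated C57BL/6J mice. It was also profiled in repopulating liver macrophages (RLM), taken from Clec4f-cre/Rosa26iDTR mice 24 h after diphtheria toxin. In those mice Cre from the Clec4f locus switches on the toxin receptor in Kupffer cells, which the toxin then kills. Kupffer cells were untreated and are labelled C57BL/6J, although the design text of the series takes them from mice with the Clec4f-Cre and toxin receptor alleles. BMDM from C57BL/6J mice were cultured for 4 days and were given the Notch ligand DLL4 for 24 h or left untreated. LXR was profiled in Kupffer cells, and SMAD4 and RBPJ in Kupffer cell nuclei, all from mice labelled Clec4f-cre. In BMDM from C57BL/6J mice, LXR was profiled after a culture of 7 days that ended with 18 h of GW3965, an LXR agonist, and SMAD4 and RBPJ were profiled untreated after 4 days. SMAD4 is the shared partner of SMAD proteins in TGF-beta and BMP signalling, and RBPJ is the DNA-binding factor of Notch signalling. Animal ages are not given in the sources used here.

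H3K27ac libraries held 7368619 to 19498952 tags in the liver table and 20178916 to 27239851 in the BMDM table. Levels are CPM, tags scaled to library size after TMM normalization, and differences are log2 values from an edgeR fit, each with its standard error (SE). A region or a gene sum was called when its adjusted p fell below 0.05 and it differed by at least 2-fold. The 7 Kupffer cell markers summed to 87.1 and 69.3 CPM in monocytes, 152 and 158 CPM in RLM and 1407 and 1585 CPM in Kupffer cells. Of these, 3 were called higher in RLM against monocytes and 7 in Kupffer cells against RLM. The 6 macrophage markers summed to 180.3 and 171 CPM in monocytes, 447 and 423 CPM in RLM and 1115 and 1234 CPM in Kupffer cells. The 6 endothelial markers summed to 87.4 and 79.3 CPM in monocytes, 111 and 105 CPM in RLM and 191 and 196 CPM in Kupffer cells, and the 4 tested of 6 hepatocyte markers to 17.1 and 18.2 CPM in monocytes, 20.4 and 24.5 CPM in RLM and 48.5 and 51.3 CPM in Kupffer cells. A few genes carried these sums. Against RLM, the hepatocyte gene Ttr was called higher in Kupffer cells by 2.48 (SE 0.27) and Apob lower, with Alb and Apoa1 not called. Of the endothelial genes Stab2 was called higher by 2.47 (SE 0.21), Kdr and Tek lower, and Pecam1 had a difference of 0.65 (SE 0.17), not called. The medians of these differences were -0.12 over the hepatocyte markers and -0.47 over the endothelial markers. The part of these genes in the results was not tested. The 6 monocyte markers summed to 585 to 650.5 CPM, with members moving apart. In RLM against monocytes 3 of them were called lower, and in Kupffer cells against RLM 3 were lower, among them Fn1 and F10, and 2 higher, among them Plac8. The 5 tested of 6 neutrophil markers summed to 46.3 to 77.9 CPM, the 2 tested of 6 lymphocyte markers to 12.4 to 19.0 CPM and the 1 tested of 6 stellate cell markers to 0.566 to 3.11 CPM over the 6 libraries. A higher level can come from more cells with the mark or from more of the mark per cell, which cannot be told apart in bulk libraries. RLM differ in toxin treatment and labelled strain, as well as in cell state, from both monocytes and Kupffer cells, and these cannot be told apart in either comparison.

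The bases just upstream of Abca1 are shown because this promoter gained H3K27ac in RLM and held LXR peaks in all 4 LXR libraries. The sequence runs 5′ to 3′ on the minus strand of GRCm38.p6 (chr4:53159896-53160145, RefSeq) and ends at the base before the start. Capitals mark the arms of a degenerate direct repeat with 4 bases between them.
Abca1 upstream bases: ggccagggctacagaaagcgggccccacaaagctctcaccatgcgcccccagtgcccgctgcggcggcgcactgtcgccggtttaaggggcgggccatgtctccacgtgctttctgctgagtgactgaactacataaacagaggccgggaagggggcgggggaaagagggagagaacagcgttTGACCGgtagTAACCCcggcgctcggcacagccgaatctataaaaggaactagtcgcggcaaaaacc
Abca1 repeat in gene orientation: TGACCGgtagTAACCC
Abca1 repeat on the other strand: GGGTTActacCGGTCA
The pattern searched on both strands was AGGTCA, any 4 bases and AGGTCA again, the arrangement that LXR with RXR binds, and the match differed from it at 3 of 12 bases. It lay 67 to 52 bases before the start used here, base 53159895, at chr4:53159947-53159962. The RefSeq gene as a whole reaches to base 53159988, and by that bound the repeat lies inside it. Among 32851 RefSeq promoter windows of 300 bases, 21.9% held a match with up to 3 differences and 3.02% one with up to 2. The E-box CACGTG lay 147 to 142 bases before the start, outside the repeat, and 7.15% of windows held one. TGGGAA (an RBPJ core, in 25.6% of windows), CAGAC (a SMAD box, 49.6%), GGCGCC (a GC-rich SMAD motif, 11.9%) and GAGGAA (a PU.1 core, 28.3%) were not found in the Abca1 window on either strand. LXR peaks covered the repeat in both Kupffer cell libraries and both BMDM libraries. SMAD4 peaks at this site lay wholly upstream of it in all 4 libraries. The RBPJ peak covered it in 0 of 2 libraries of Kupffer nuclei and in 1 of 2 BMDM libraries.

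H3K27ac over both exporter loci was low in blood monocytes, several times higher in RLM and highest in Kupffer cells. Summed over its 25 regions, Abca1 held 53.5 and 49.8 CPM in monocytes, 390.3 and 417 CPM in RLM and 827 and 962 CPM in Kupffer cells. Abcg1, over 18 regions, held 69.6 and 76.8 CPM in monocytes, 447 and 399 CPM in RLM and 694 and 864 CPM in Kupffer cells. No library of one group overlapped those of another at either gene, and 13.9% of all gene sums had their groups apart in this order, as had 13.0% of all regions. The sum of Abca1 ranked above 69.4% of tested genes in monocytes, 98.7% in RLM and 99.8% in Kupffer cells, and that of Abcg1 above 76.8%, 98.9% and 99.6%, ranks that also rest on how many regions a gene has.

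**Figure D1:**
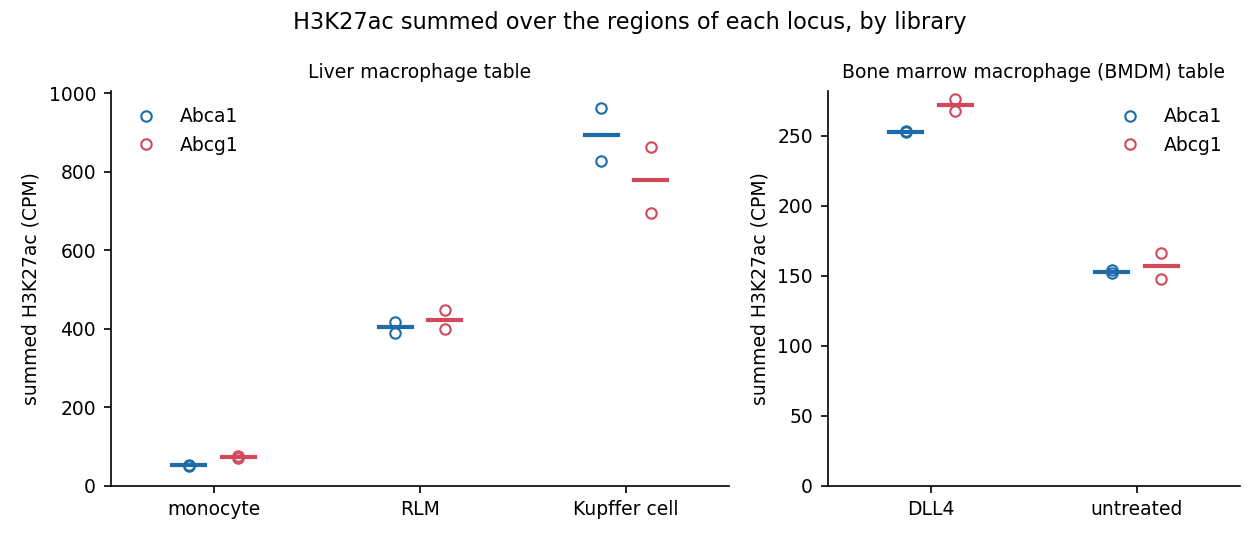
Summed H3K27ac (CPM, y axis) of Abca1 and Abcg1 in each library (points) with the mean of each group (lines), by cell group (x axis). In the liver table both genes sit lowest in monocytes and highest in Kupffer cells, and in BMDM both sit higher with DLL4 than untreated. The tables were scaled separately, so levels do not compare between them.

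The sum of Abca1 was higher in RLM than in monocytes by 2.97 (SE 0.16) on the log2 scale (edgeR's quasi-likelihood test, adjusted p = 1.57e-15), and that of Abcg1 by 2.53 (SE 0.16) (edgeR adjusted p = 7.99e-14). Of all 16749 gene sums tested, 6.20% were called higher in RLM and 5.80% lower. Kupffer cells exceeded RLM by 1.15 (SE 0.15) at Abca1 (edgeR adjusted p = 7.14e-08). At Abcg1 the Kupffer cell minus RLM difference was 0.88 (SE 0.15) (edgeR adjusted p = 1.03e-05), under the 2-fold minimum, and it was 1.10 without Kupffer cell library 1. That comparison called 14.6% of gene sums higher and 12.8% lower. Kupffer cells exceeded monocytes by 4.11 (SE 0.17) at Abca1 and 3.41 (SE 0.16) at Abcg1, where 18.4% of gene sums were called higher and 14.4% lower. The 3 comparisons share libraries and are not independent.

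With scaling by total tags, the gene sums called between Kupffer cells and RLM were 1549 higher and 3528 lower, against 2444 and 2142 with TMM, and the median difference of all genes was -0.40, against -0.07 with TMM. For Kupffer cells against monocytes the calls were 2324 higher and 3661 lower, against 3084 and 2411. Under that scaling Abca1 exceeded RLM in Kupffer cells by 0.82 (SE 0.11) and Abcg1 by 0.55 (SE 0.11), both under the 2-fold minimum and both well above the shifted median. Within 20 kb of the start, which leaves out most of the Abca1 intron regions, the Kupffer cell minus RLM difference of Abca1 was 0.63 (SE 0.17).

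Region by region, the gains differed with position. In RLM against monocytes, 20 of 25 Abca1 regions and 14 of 17 tested Abcg1 regions were called higher, where 8.57% of all 80982 tested regions were. None of them was called lower by edgeR, with 0 at an unadjusted p under 0.05 in that direction and 0 by DESeq2, where 9.14% of all regions were called. In Kupffer cells against RLM, 20 of 25 and 10 of 17 were called higher, beside 22.3% of all regions. None was called lower by edgeR or DESeq2, beside 13.9%, and 1 Abca1 region was lower at an unadjusted p under 0.05. In Kupffer cells against monocytes, 24 of 25 and 16 of 17 were called higher, beside 24.9%, and none lower by edgeR (0 at an unadjusted p under 0.05, 0 by DESeq2), beside 17.7%. The Abcg1 region 46.0 kb upstream was too low to test in either table.

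**Figure D2:**
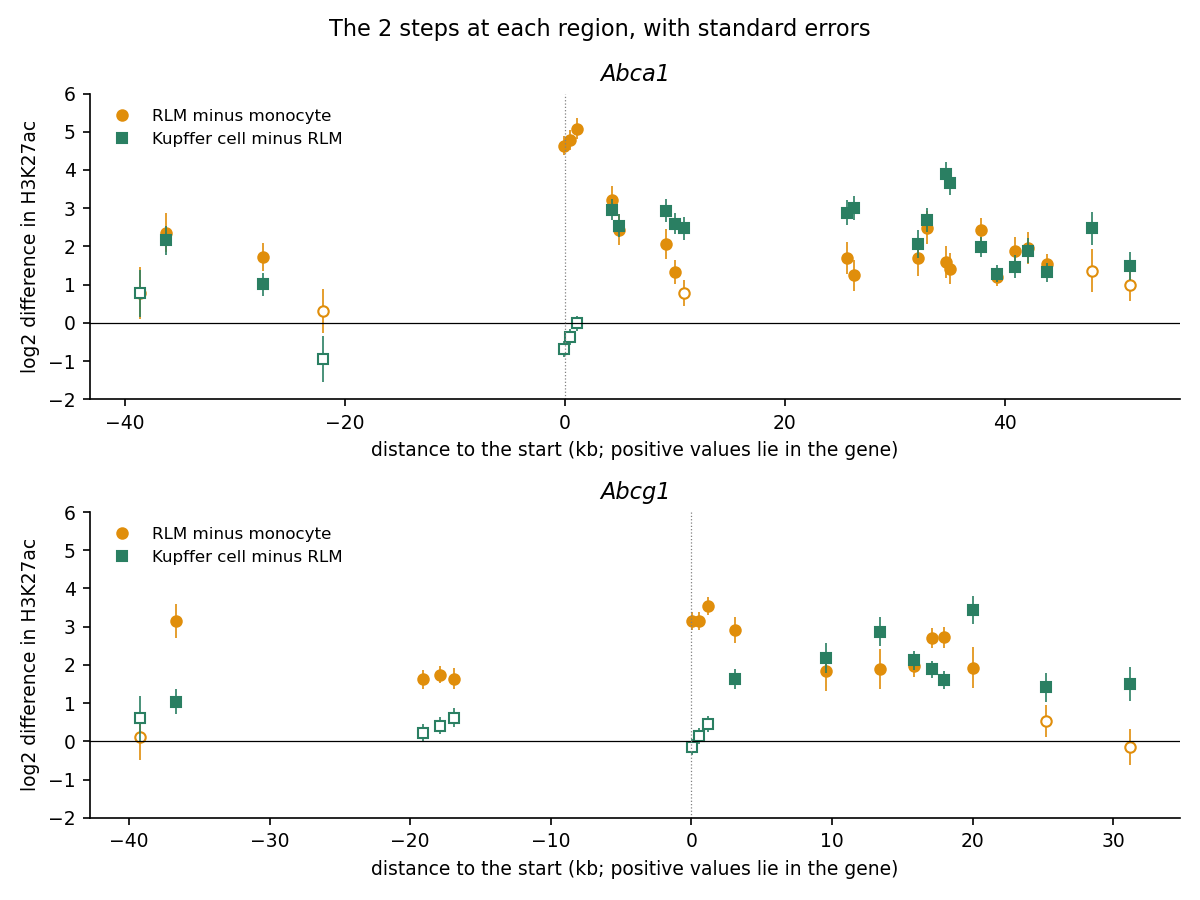
Log2 difference in H3K27ac (y axis, bars are SE) of RLM minus monocyte and of Kupffer cell minus RLM at each tested liver region, by distance of its centre to the start (x axis, kb). Filled symbols were called. Regions at the starts were called for RLM against monocytes and not for Kupffer cells against RLM, and all regions farther into the genes were called for Kupffer cells against RLM.

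Around the starts, the mark differed strongly between RLM and monocytes and little between Kupffer cells and RLM. The Abca1 promoter region (chr4:53159020-53161020, centred 125 bp upstream) held 3.31 and 3.05 CPM in monocytes, 76.2 and 82.6 CPM in RLM, and 42.7 and 55.5 CPM in Kupffer cells. The RLM libraries were the highest of the 6, and no group overlapped another, which in any order held for 38.0% of all tested regions. RLM exceeded monocytes by 4.64 (SE 0.26), while the Kupffer cell minus RLM difference was -0.69 (SE 0.20) (edgeR adjusted p = 0.00424), less mark in Kupffer cells but under the 2-fold minimum.

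In the first intron of Abca1, the region at 0.488 kb held 2.89 and 3.39 CPM in monocytes, 82.2 and 91.9 CPM in RLM, and 57.0 and 77.5 CPM in Kupffer cells. The region at 1.08 kb (chr4:53157819-53159819) had the highest mean level of the locus and held 2.31 and 2.48 CPM in monocytes, 77.3 and 85.6 CPM in RLM, and 67.0 and 94.2 CPM in Kupffer cells. Here the Kupffer cell libraries lay on either side of those of RLM, and the monocyte libraries far below both. Its RLM minus monocyte difference was 5.08 (SE 0.27), the largest of the locus, and its Kupffer cell minus RLM difference was -0.01 (SE 0.20).

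The Abcg1 promoter region (chr17:31056736-31058736, centred 42 bp downstream) held 6.03 and 8.17 CPM in monocytes, 64.8 and 62.4 CPM in RLM, and 48.9 and 65.3 CPM in Kupffer cells. Kupffer cell and RLM libraries overlapped there, and monocytes lay below both. RLM exceeded monocytes by 3.16 (SE 0.24), and the Kupffer cell minus RLM difference was -0.15 (SE 0.21) (edgeR adjusted p = 0.569). In its first intron, the region at 0.552 kb held 6.28 and 9.66 CPM in monocytes, 72.8 and 68.9 CPM in RLM, and 65.5 and 91.2 CPM in Kupffer cells. The region at 1.17 kb (chr17:31057864-31059864) had the highest mean of the locus and held 4.79 and 7.84 CPM in monocytes, 76.7 and 70.8 CPM in RLM, and 81.2 and 121 CPM in Kupffer cells. Its RLM minus monocyte difference was 3.54 (SE 0.24), the largest of the locus, and its Kupffer cell minus RLM difference was 0.46 (SE 0.21). Within 2 kb of the starts, all 3 regions of each gene were called higher in RLM than in monocytes, and Kupffer cell minus RLM differences ran from -0.69 to 0.46, under the 2-fold minimum at each.

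**Figure D3:**
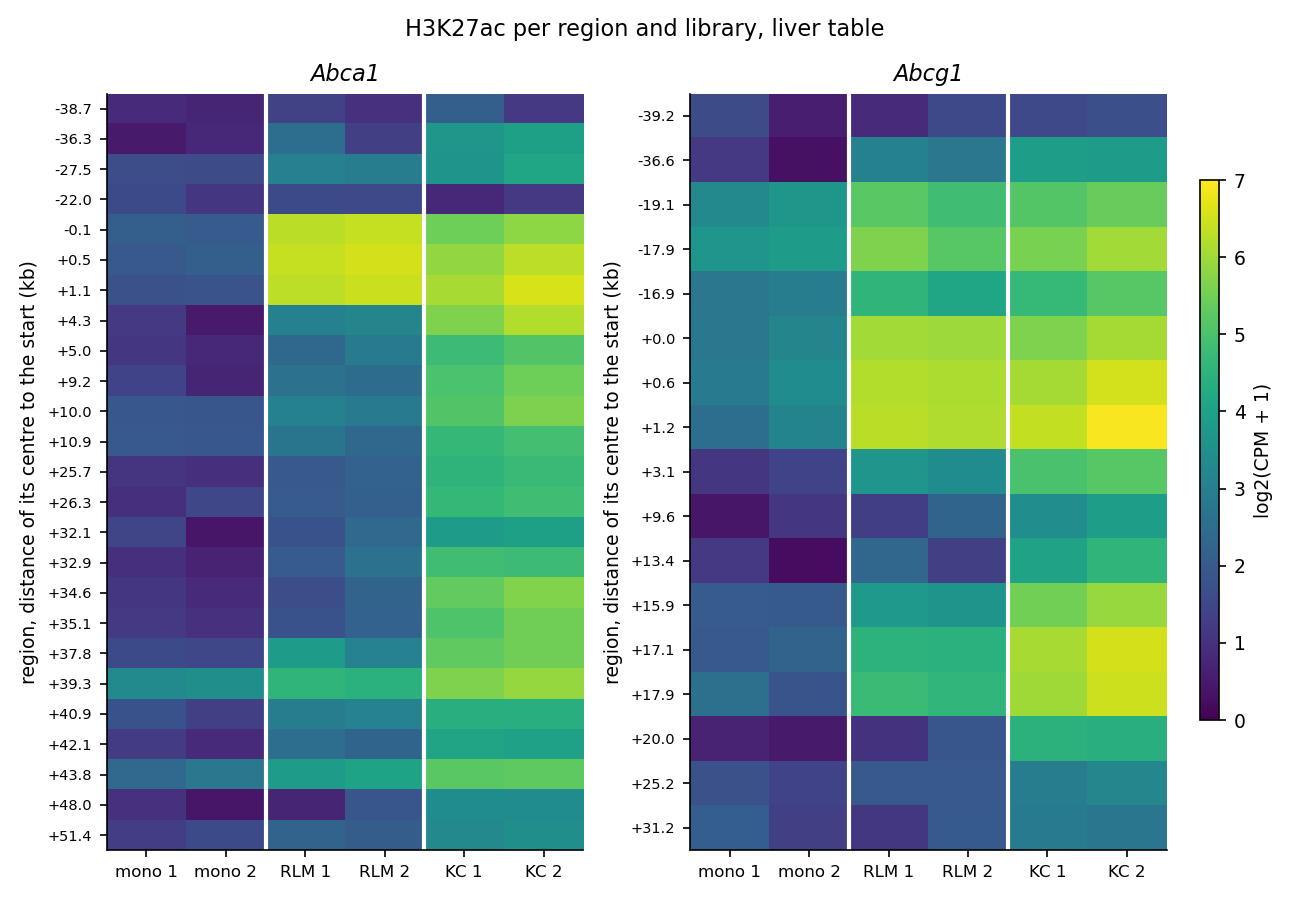
H3K27ac (colour, log2 of CPM + 1) in each of the 6 liver table libraries (columns) at each tested region (rows, by distance to the start in kb). Rows at the starts are bright in RLM and Kupffer cells, and most rows farther into the genes are brightest in Kupffer cells.

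Farther into Abca1, both steps added mark. Beyond 2 kb into the gene, 15 of 18 regions were called higher in RLM against monocytes and 18 of 18 in Kupffer cells against RLM. Their median differences were 1.64 and 2.51, beside 0.07 and -0.04 over all regions. The region 34.6 kb into the gene, in intron 5 (chr4:53124271-53126271), had the largest Kupffer cell gain over RLM. It held 1.16 and 0.826 CPM in monocytes, 2.23 and 3.66 CPM in RLM, and 39.2 and 49.7 CPM in Kupffer cells. RLM lay little above monocytes and far below Kupffer cells, with differences of 1.59 (SE 0.42) for RLM minus monocyte and 3.89 (SE 0.31) for Kupffer cell minus RLM.

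The region at 4.26 kb, in intron 1 (chr4:53154633-53156633), had the widest gap of the locus between Kupffer cells and monocytes, 6.18 (SE 0.35). It held 1.24 and 0.413 CPM in monocytes, 7.36 and 8.13 CPM in RLM, and 48.9 and 72.0 CPM in Kupffer cells. The steps were close in size, 3.21 (SE 0.38) for RLM minus monocyte and 2.96 (SE 0.27) for Kupffer cell minus RLM. The overlapping region at 4.95 kb held 1.16 and 0.743 CPM in monocytes, 4.07 and 6.20 CPM in RLM, and 27.1 and 33.3 CPM in Kupffer cells, and at both the 3 groups did not overlap.

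Also in intron 1, the region at 9.17 kb held 1.65 and 0.660 CPM in monocytes, 5.26 and 4.57 CPM in RLM, and 31.2 and 43.2 CPM in Kupffer cells. The region at 10.0 kb held 2.73 and 2.64 CPM in monocytes, 7.36 and 6.20 CPM in RLM, and 33.4 and 47.7 CPM in Kupffer cells. At 10.9 kb the levels were 2.89 and 2.72 CPM in monocytes, 5.65 and 4.06 CPM in RLM, and 24.2 and 29.1 CPM in Kupffer cells. All 3 kept the order of the groups without overlap, which 13.0% of all regions did, and Kupffer cells exceeded RLM by 2.93 (SE 0.30), 2.59 (SE 0.28) and 2.47 (SE 0.30). The RLM minus monocyte difference at 10.9 kb, 0.77 (SE 0.34), was not called.

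In intron 2, the region at 25.7 kb held 1.07 and 0.908 CPM in monocytes, 2.89 and 3.56 CPM in RLM, and 22.5 and 25.3 CPM in Kupffer cells, and the overlapping one at 26.3 kb held 0.909 and 1.82 CPM in monocytes, 3.02 and 3.45 CPM in RLM, and 24.3 and 28.0 CPM in Kupffer cells. Kupffer cells exceeded RLM there by 2.88 (SE 0.32) and 3.01 (SE 0.32). The region at 32.1 kb, in intron 4, held 1.74 and 0.330 CPM in monocytes, 2.36 and 4.27 CPM in RLM, and 13.2 and 14.9 CPM in Kupffer cells, and that at 32.9 kb, in intron 5, held 0.909 and 0.578 CPM in monocytes, 3.02 and 5.28 CPM in RLM, and 27.8 and 26.9 CPM in Kupffer cells. Monocytes were at or below 1.82 CPM in all 4 regions.

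Deeper in intron 5, the region at 37.8 kb held 1.98 and 1.82 CPM in monocytes, 13.3 and 7.52 CPM in RLM, and 38.3 and 43.4 CPM in Kupffer cells. The one at 39.3 kb held 8.93 and 10.2 CPM in monocytes, 22.9 and 21.0 CPM in RLM, and 49.1 and 58.0 CPM in Kupffer cells, the highest monocyte level of the locus. The region at 43.8 kb held 4.30 and 5.86 CPM in monocytes, 13.5 and 15.7 CPM in RLM, and 36.1 and 37.4 CPM in Kupffer cells. Kupffer cells exceeded RLM by 1.99 (SE 0.27), 1.29 (SE 0.23) and 1.33 (SE 0.25) at these 3, the last 2 being the smallest such gains beyond 2 kb into the gene. Regions at 40.9, 42.1, 48.0 and 51.4 kb, which had no LXR peak in both Kupffer cell libraries, held 8.82 to 20.1 CPM in Kupffer cells, with Kupffer cell minus RLM differences from 1.47 to 2.47.

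Upstream of Abca1 the mark was lower. The region 27.5 kb upstream held 2.15 and 2.06 CPM in monocytes, 7.23 and 6.81 CPM in RLM, and 11.3 and 16.5 CPM in Kupffer cells. The one 36.3 kb upstream held 0.413 and 0.743 CPM in monocytes, 4.73 and 1.52 CPM in RLM, and 12.2 and 14.8 CPM in Kupffer cells. Both were called at each step. The region 22.0 kb upstream held 1.98 and 1.16 CPM in monocytes, 1.97 and 1.93 CPM in RLM, and 0.715 and 1.23 CPM in Kupffer cells. It was the 1 of 25 not called in Kupffer cells against monocytes, with a difference of -0.63 (SE 0.60) (edgeR adjusted p = 0.389). The region 38.7 kb upstream stayed at or below 3.34 CPM in every library.

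In Abcg1, 7 of 9 regions beyond 2 kb into the gene were called higher in RLM against monocytes and 9 of 9 in Kupffer cells against RLM, with medians of 1.92 and 1.89. The largest Kupffer cell gain lay 20.0 kb into the gene, in intron 2 (chr17:31076686-31078686), which held 0.579 and 0.413 CPM in monocytes, 1.05 and 2.64 CPM in RLM, and 21.6 and 20.4 CPM in Kupffer cells. The Kupffer cell minus RLM difference was 3.45 (SE 0.37) and the Kupffer cell minus monocyte difference 5.37 (SE 0.43), both the largest of the locus. The RLM minus monocyte difference was 1.92 (SE 0.54), and it rests on few tags.

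Between 15 and 18 kb, also in intron 2, lay the 3 regions with the highest Kupffer cell levels outside the start and the upstream cluster. The region at 15.9 kb held 3.06 and 2.97 CPM in monocytes, 12.6 and 11.3 CPM in RLM, and 44.7 and 59.0 CPM in Kupffer cells. The region at 17.1 kb held 2.89 and 3.72 CPM in monocytes, 22.2 and 21.1 CPM in RLM, and 67.2 and 92.9 CPM in Kupffer cells. The region at 17.9 kb held 4.96 and 2.56 CPM in monocytes, 26.5 and 23.3 CPM in RLM, and 63.5 and 86.7 CPM in Kupffer cells. Each rose at both steps without overlap of the groups, by 1.98 (SE 0.29), 2.71 (SE 0.27) and 2.72 (SE 0.27) in RLM over monocytes and by 2.12 (SE 0.25), 1.89 (SE 0.22) and 1.60 (SE 0.23) in Kupffer cells over RLM.

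Weaker intron regions of Abcg1 were also highest in Kupffer cells. The region at 9.57 kb held 0.331 and 1.16 CPM in monocytes, 1.45 and 3.76 CPM in RLM, and 9.78 and 14.3 CPM in Kupffer cells. The region at 25.2 kb held 2.31 and 1.65 CPM in monocytes, 2.89 and 2.84 CPM in RLM, and 6.68 and 8.51 CPM in Kupffer cells. At 31.2 kb the levels were 3.22 and 1.49 CPM in monocytes, 1.18 and 2.95 CPM in RLM, and 6.44 and 5.69 CPM in Kupffer cells. At 25.2 and 31.2 kb the RLM minus monocyte differences, 0.53 (SE 0.43) and -0.15 (SE 0.46), were not called, and Kupffer cells exceeded RLM at all 3. Regions at 3.11 and 13.4 kb were called higher at both steps.

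The upstream cluster of Abcg1 already carried mark in monocytes. The region 17.9 kb upstream (chr17:31038809-31040809) held 11.9 and 13.3 CPM in monocytes, 49.3 and 35.5 CPM in RLM, and 47.2 and 64.9 CPM in Kupffer cells. The region 19.1 kb upstream held 8.76 and 12.0 CPM in monocytes, 35.7 and 28.1 CPM in RLM, and 34.2 and 40.4 CPM in Kupffer cells, and that 16.9 kb upstream held 5.87 and 6.69 CPM in monocytes, 23.0 and 16.5 CPM in RLM, and 24.8 and 35.2 CPM in Kupffer cells. Kupffer cell and RLM libraries overlapped at the first 2 and not at the last. RLM exceeded monocytes by 1.75 (SE 0.23), 1.62 (SE 0.24) and 1.64 (SE 0.27), all called, while the Kupffer cell minus RLM differences were 0.41 (SE 0.22), 0.23 (SE 0.23) and 0.62 (SE 0.25), under the 2-fold minimum. The region 36.6 kb upstream held 1.24 and 0.248 CPM in monocytes, 7.49 and 5.89 CPM in RLM, and 14.1 and 13.3 CPM in Kupffer cells and was called at both steps. The region 39.2 kb upstream stayed at or below 2.29 CPM in every library.

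Whether the RLM gain and the Kupffer cell gain differed was tested as the Kupffer cell minus RLM difference less the RLM minus monocyte difference, a test added after the data were seen. At the starts the earlier step was larger, with -5.33 (SE 0.37) at the Abca1 promoter and -3.31 (SE 0.36) at the Abcg1 promoter. All 3 start regions of each gene were called in this direction, as were 9.24% of all tested regions, while 15.0% were called in the other. At Abca1, 4 intron regions were called with a larger later step, at 10.9, 26.3, 34.6 and 35.1 kb. The value at 34.6 kb was 2.30 (SE 0.65) (edgeR adjusted p = 0.00552). That count was 1 without RLM library 1 and 2 without Kupffer cell library 2. At Abcg1, 7 regions were called with a larger earlier step, the 3 at the start, 3 upstream and the one at 17.9 kb, and 3 were without RLM library 1. No Abcg1 region was called with a larger later step by edgeR, with 1 at an unadjusted p under 0.05 and 0 by DESeq2, but 1 was without monocyte library 2 and 2 were without RLM library 2. The summed loci gave -1.82 (SE 0.25) at Abca1 and -1.65 (SE 0.25) at Abcg1, where 12.3% of gene sums were called in this direction and 15.9% in the other. With total tags those shares came from 3117 and 1603 genes, against 2053 and 2665 with TMM.

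LXR peaks lay over most of the Abca1 and Abcg1 regions in Kupffer cells. Peaks of both Kupffer cell libraries overlapped 17 of 25 Abca1 and 12 of 18 Abcg1 regions of the liver table, beside 41.2% of all its regions. For regions, the peaks of the libraries did not have to overlap each other. They lay apart in the region at 10.9 kb of Abca1 and in the Abcg1 promoter region. Peaks of both GW3965-treated BMDM libraries overlapped 14 and 10, beside 32.2%. Counted as peaks, 11 at Abca1 and 10 at Abcg1 were shared by the Kupffer cell libraries, and 10 and 9 by the BMDM libraries. The second Kupffer cell library carries a control diet in its name and was called against an input named for a NASH diet; the first library alone held 19 peaks at Abca1 and 13 at Abcg1. Peak signals below are the authors' tag counts scaled to a library of 10 M tags. They rank peaks within a list and were not tested between lists, which differ in culture, agonist, depth and length.

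**Figure D4:**
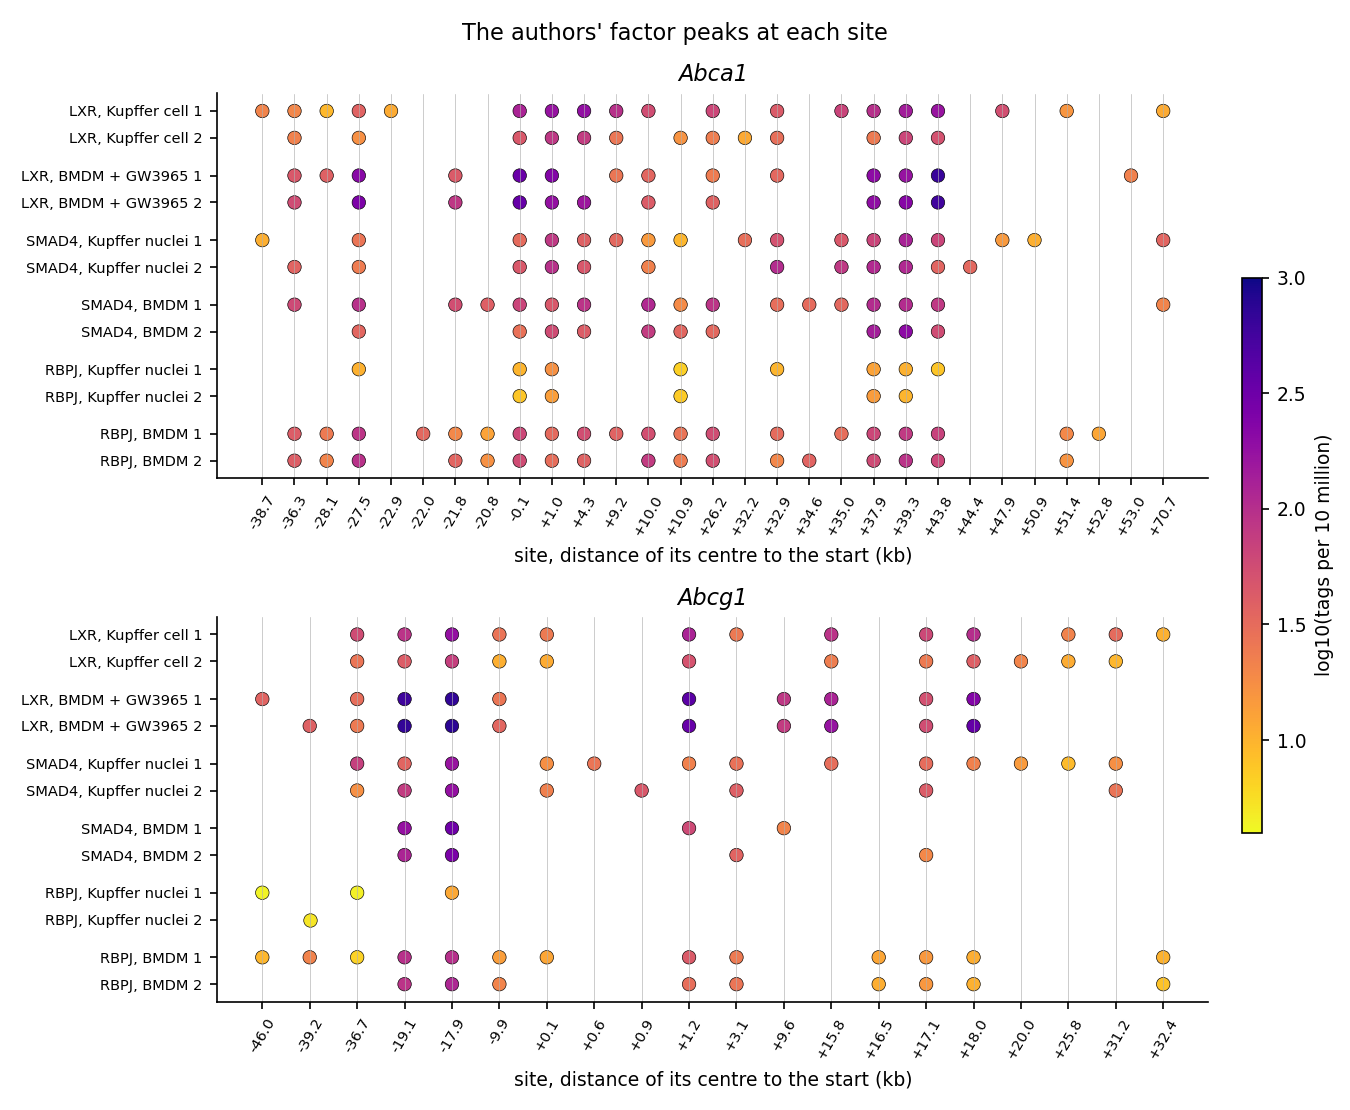
The authors' peak signal (colour, log10 of tags per 10 M) at each merged site (x axis, in order of the distance of its centre to the start in kb, not to scale) in each of 12 libraries (rows). A gap means that the list holds no peak there. LXR peaks of both cell types stand at the Abca1 start, in the introns and, at Abcg1, near 18 kb upstream, and RBPJ peaks of Kupffer nuclei are few at Abcg1.

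Of the 11 Abca1 and 10 Abcg1 sites with LXR in both Kupffer cell libraries, 8 and 8 also had it in both BMDM libraries. Over the genome, 45.2% of Kupffer cell LXR peaks overlapped a BMDM one and 50.9% of BMDM LXR peaks a Kupffer cell one. Shares over the genome, here and below, count all peaks, also those outside the H3K27ac regions that the sites are limited to. The promoter site of Abca1 held LXR signals of 125 and 45.5 in Kupffer cells and 331 and 352 in BMDM. These lay above 98.1% and 97.4% of the peaks in the Kupffer cell lists and 99.6% and 99.4% in the BMDM lists. The site at 1.05 kb held 172 and 84.7 in Kupffer cells and 234 and 182 in BMDM. The site 43.8 kb into the gene held 169 and 51.0 in Kupffer cells and 649 and 582 in BMDM, the highest of Abca1 in both BMDM lists.

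In the first Kupffer cell list the highest Abca1 signal lay at 4.27 kb, where the Kupffer cell libraries held 182 and 77.6, which stood above 99.5% and 99.3% of their lists. At this site the second BMDM library held a peak of 156.5 and the first held none. At 39.3 kb LXR held 141 and 63.4 in Kupffer cells and 173 and 218 in BMDM, and at 37.9 kb 97.6 and 24.5 in Kupffer cells and 202 and 192 in BMDM. Upstream, the site at 27.5 kb held 37.4 and 17.2 in Kupffer cells and 215 and 256 in BMDM, above 71.9% and 82.5% of the Kupffer cell lists and 98.9% and 98.7% of the BMDM lists. The site 21.8 kb upstream had LXR in both BMDM libraries, at 43.2 and 85.2, and in neither Kupffer cell library. It lies in the region that was not called in Kupffer cells against monocytes.

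At Abcg1 the highest LXR signal in all 4 lists lay 17.9 kb upstream, with 180.3 and 72.6 in Kupffer cells and 703 and 741 in BMDM. It stood above 99.4% and 99.2% of the Kupffer cell lists. Its neighbour at 19.1 kb held 90.1 and 41.7 in Kupffer cells and 589 and 684 in BMDM. The site 1.21 kb into the gene held 125 and 50.4 in Kupffer cells and 405 and 346 in BMDM. All 3 lie in regions whose Kupffer cell minus RLM difference stayed under 2-fold.

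In the second intron of Abcg1, LXR held 90.1 and 23.1 in Kupffer cells and 125 and 174 in BMDM at 15.8 kb. At 17.1 kb it held 60.6 and 24.5 in Kupffer cells and 52.6 and 55.8 in BMDM, and at 18.0 kb 100.5 and 39.6 in Kupffer cells and 235 and 355 in BMDM. Sites at 25.8 and 31.2 kb had LXR in both Kupffer cell libraries, at 21.4 and 11.2 and at 31.7 and 9.59, and no LXR peak in BMDM. The site at 9.56 kb had LXR in both BMDM libraries, at 83.9 and 77.2, and no LXR peak in Kupffer cells. A missing peak means that the site did not pass the authors' thresholds in that library, not that nothing was bound.

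SMAD4 peaks were set beside the LXR sites. In Kupffer nuclei 10 SMAD4 peaks at Abca1 and 7 at Abcg1 were shared by both libraries. Of sites with LXR in both Kupffer cell libraries, 8 of 11 at Abca1 and 5 of 10 at Abcg1 had SMAD4 in both. Over the genome 51.5% of Kupffer cell LXR peaks overlapped SMAD4 of Kupffer nuclei, close to the share at Abcg1. SMAD4 peaks overlapped 16 of 25 Abca1 and 11 of 18 Abcg1 regions of the liver table in Kupffer nuclei, beside 35.5%, and 14 and 3 in BMDM, beside 29.2%. The highest SMAD4 signals at Abcg1 lay 17.9 kb upstream, with 168 and 178 in Kupffer nuclei and 309 and 260.0 in BMDM. At Abca1 the highest of Kupffer nuclei lay at 39.3 kb, which held 128 and 111 in Kupffer nuclei and 104 and 201 in BMDM. In BMDM both libraries held SMAD4 at 2 Abcg1 sites, those 17.9 and 19.1 kb upstream. Over the genome 42.5% of SMAD4 peaks of Kupffer nuclei overlapped a BMDM one, and 46.8% of BMDM SMAD4 peaks one of Kupffer nuclei.

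RBPJ of Kupffer nuclei was found in both libraries at 5 Abca1 sites and at 0 of 20 Abcg1 sites, while single libraries held 3 peaks and 1 peak at Abcg1. These peaks overlapped 7 of 25 Abca1 and 0 of 18 Abcg1 regions of the liver table, beside 10.9% of all regions. In BMDM 16 RBPJ peaks at Abca1 and 9 at Abcg1 were shared by both libraries, over 21 of 25 and 9 of 18 regions, beside 68.7%. The RBPJ lists of Kupffer nuclei were short, with 13394 and 11277 peaks, against 80480 and 78976 in BMDM. Over the genome 82.8% of RBPJ peaks of Kupffer nuclei overlapped a BMDM one, and 7.16% of BMDM RBPJ peaks one of Kupffer nuclei. At Abca1, 4 sites stood in all 12 lists, the promoter and those at 1.05, 37.9 and 39.3 kb. At 37.9 kb RBPJ held 12.7 and 14.2 in Kupffer nuclei and 62.7 and 58.3 in BMDM, and at 1.05 kb 16.8 and 13.4 in Kupffer nuclei and 32.5 and 30.3 in BMDM.

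Regions with an LXR peak of each Kupffer cell library, overlapping each other or not, were set beside those without. Only counts are given, since regions overlap. At Abca1, 14 of 17 regions with LXR and 6 of 8 without were called higher in Kupffer cells than in RLM, with medians of 2.16 and 1.69. At Abcg1 the counts were 6 of 12 with LXR and 4 of 5 without, with medians of 0.83 and 2.18. In RLM against monocytes they were 16 of 17 and 4 of 8 at Abca1, and 10 of 12 and 4 of 5 at Abcg1. Beyond 2 kb into the gene, 18 of 18 Abca1 and 9 of 9 Abcg1 regions were called higher in Kupffer cells than in RLM. These include regions with LXR and without. The Abcg1 regions with LXR not called in that comparison lay at the start and in the upstream cluster, so the split also follows position. The largest Kupffer cell gains over RLM, at 34.6 kb of Abca1 and 20.0 kb of Abcg1, lay in regions without such a peak. A single Kupffer cell library held an LXR peak inside each. The first library held 66.3 at 35.0 kb of Abca1, and the second held 20.1 at 20.0 kb of Abcg1. These signals stood above 90.0% and 86.5% of the peaks in their lists.

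In BMDM, H3K27ac over both loci was higher with the Notch ligand DLL4 than without. Summed, Abca1 held 253 and 253 CPM with DLL4, against 154 and 152 CPM untreated, and Abcg1 held 268 and 276 CPM with DLL4, against 166 and 148 CPM untreated. The groups did not overlap, and 30.1% of all gene sums had both DLL4 libraries above both untreated ones. The differences were 0.73 (SE 0.06) at Abca1 and 0.79 (SE 0.06) at Abcg1 (edgeR adjusted p = 2.48e-16 and 1.71e-17), under the 2-fold minimum. Of 16421 gene sums 2.60% were called higher and 1.28% lower. With total tags the calls over all genes were 349 higher and 293 lower, against 427 and 211 with TMM, and the exporters differed by 0.63 and 0.70. Within 20 kb of the start Abca1 differed by 1.22, past the minimum. The 3 tested of 5 Notch response genes summed to 147 and 159 CPM with DLL4 and 75.8 and 73.8 CPM untreated, of which Hes1 was called higher, by 3.13 (SE 0.13), and Hey1 and Nrarp were not called. The 6 macrophage markers summed to 2039.6 and 2115 CPM with DLL4 and 1499 and 1512 CPM untreated, with 3 called higher. The 5 tested of 6 endothelial markers summed to 142 and 143 CPM with DLL4 and 54.7 and 57.1 CPM untreated, and Pecam1 was the 1 of 5 called, higher by 2.10 (SE 0.10). The 2 tested of 6 lymphocyte markers summed to 258 and 258 CPM with DLL4 and 195 and 188 CPM untreated, and neither passed the call rule. The 5 tested of 6 monocyte markers summed to 470.3 and 505 CPM with DLL4 and 556 and 576 CPM untreated, and the 6 neutrophil markers to 127 and 127 CPM with DLL4 and 141 and 167 CPM untreated. The 7 Kupffer cell markers summed to 312 to 323 CPM in the 4 libraries, with Clec1b called higher by 1.23 (SE 0.19) and Marco and Folr2 at -0.53 (SE 0.12) and -0.52 (SE 0.08). The part of these markers in the results was not tested.

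Of the tested BMDM regions, 5 of 20 at Abca1 and 6 of 17 at Abcg1 were called higher with DLL4, beside 4.89% of 82089 regions. None was called lower by edgeR (0 at an unadjusted p under 0.05, 0 by DESeq2), beside 2.64%. The Abca1 promoter region held 29.2 and 29.0 CPM with DLL4, against 13.2 and 9.52 CPM untreated, a difference of 1.37 (SE 0.13). The region at 1.08 kb held 32.5 and 28.8 CPM with DLL4, against 12.9 and 10.4 CPM untreated, the largest difference of the locus at 1.41 (SE 0.13). The Abcg1 promoter region held 22.2 and 24.1 CPM with DLL4, against 10.1 and 7.71 CPM untreated, a difference of 1.39 (SE 0.15). Its neighbours at 0.555 and 1.17 kb rose by 1.43 (SE 0.14) and 1.29 (SE 0.13). In each of these regions the DLL4 libraries lay above the untreated ones, as in 28.6% of all tested regions.

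**Figure D5:**
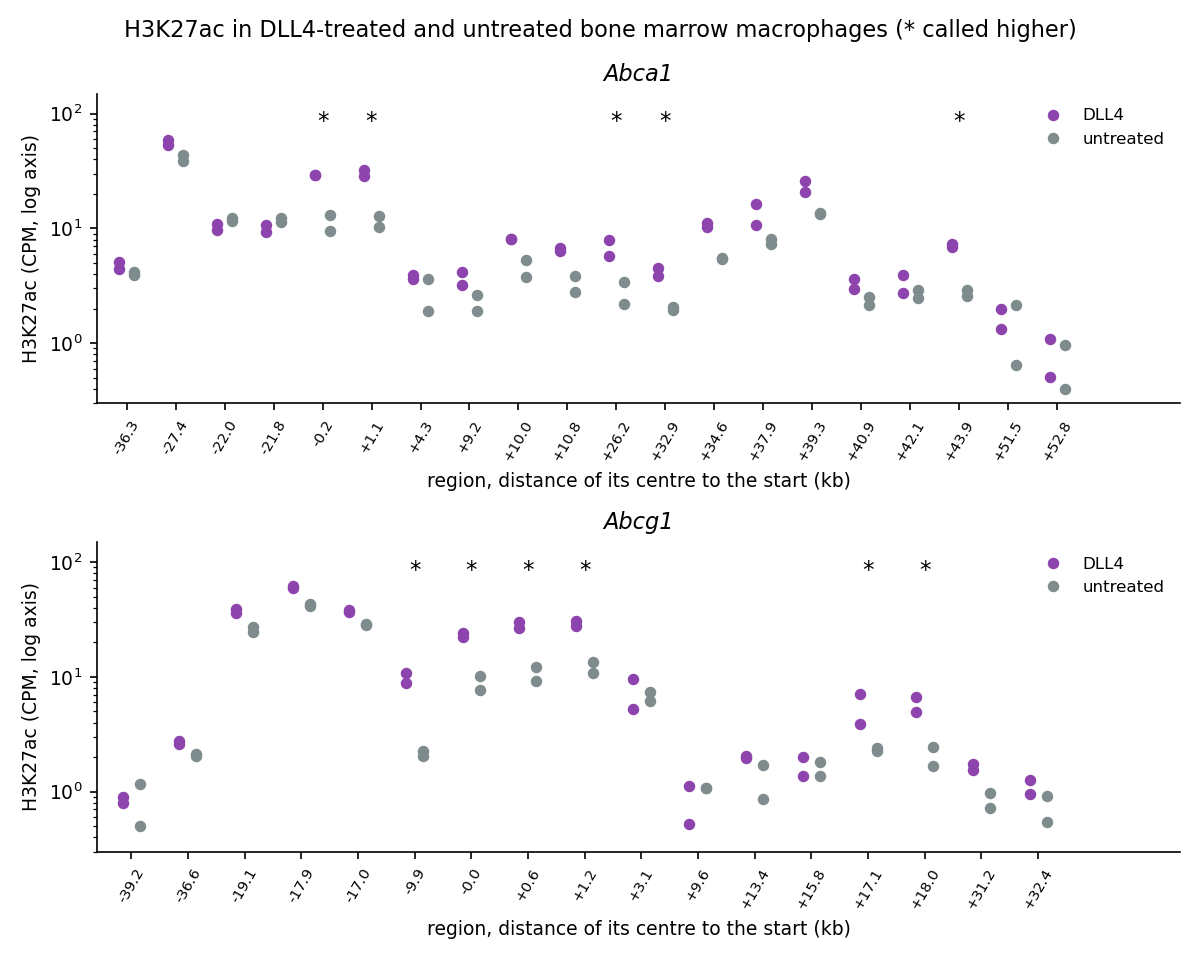
H3K27ac (CPM, log axis) at each tested BMDM region, in order of the distance of its centre to the start (kb, not to scale), with DLL4 and untreated libraries as points. Stars mark the 5 Abca1 and 6 Abcg1 regions called higher with DLL4, which include the regions at both starts.

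Away from the starts the differences were uneven. The largest of either gene lay 9.88 kb upstream of Abcg1 (chr17:31046817-31048817), a region that held 8.79 and 10.8 CPM with DLL4, against 2.04 and 2.28 CPM untreated, a difference of 2.17 (SE 0.25). Its site had LXR peaks of 27.4 and 10.7 in Kupffer cells and 26.6 and 35.2 in BMDM. In the second intron of Abcg1, the region at 17.1 kb held 7.07 and 3.90 CPM with DLL4, against 2.38 and 2.24 CPM untreated. The region at 18.0 kb held 6.65 and 4.95 CPM with DLL4, against 2.43 and 1.66 CPM untreated. Their differences were 1.25 (SE 0.31) and 1.52 (SE 0.30). Regions of that intron at 9.56 and 15.8 kb, with LXR peaks of both BMDM libraries, were not called. They differed by -0.39 (SE 0.61) and 0.08 (SE 0.44).

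In the introns of Abca1, regions at 26.2, 32.9 and 43.9 kb were called higher with DLL4. The last held 6.93 and 7.32 CPM with DLL4, against 2.58 and 2.90 CPM untreated, a difference of 1.37 (SE 0.26). The region at 34.6 kb, with the largest Kupffer cell gain in the liver table, held 10.2 and 11.2 CPM with DLL4, against 5.44 and 5.57 CPM untreated, a difference of 0.96 (SE 0.19) (edgeR adjusted p = 2.79e-04), just under 2-fold. LXR-bound regions at 10.0, 10.8, 37.9 and 39.3 kb had differences from 0.79 to 0.98, also under it. The region at 9.21 kb differed by 0.71 (SE 0.33) and also missed the p threshold (edgeR adjusted p = 0.136). Dropping the 2-fold minimum brought the count at Abca1 to 11.

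In BMDM the regions with the highest mean lay upstream at both genes, whereas over all 6 liver table libraries they lay at the start. In monocytes alone the start regions were not the highest. Monocytes held 8.93 and 10.2 CPM at 39.3 kb of Abca1 and 11.9 and 13.3 CPM 17.9 kb upstream of Abcg1. The region 27.4 kb upstream of Abca1 held 53.1 and 59.2 CPM with DLL4, against 39.1 and 43.2 CPM untreated, a difference of 0.45 (SE 0.08). The region 17.9 kb upstream of Abcg1 held 59.2 and 61.4 CPM with DLL4, against 43.6 and 41.5 CPM untreated, a difference of 0.50 (SE 0.08). Both had the DLL4 libraries above the untreated ones, as had 28.6% of all tested regions, and both were under the 2-fold minimum. The overlapping regions 21.8 and 22.0 kb upstream of Abca1, where LXR peaks were found in BMDM, differed by -0.24 (SE 0.17) and -0.22 (SE 0.16), and the first held 9.34 and 10.8 CPM with DLL4, against 11.5 and 12.3 CPM untreated. The tables were scaled separately, so only the order within each is given.

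Regions within 100 kb of the starts but nearest to another gene's start were counted for comparison. Around Abca1, 6 of 11 were called higher in RLM than in monocytes (8.57% of all regions), 3 of 11 in Kupffer cells against RLM (22.3%) and 9 of 11 in Kupffer cells against monocytes (24.9%). Around Abcg1 the counts were 1, 3 and 2 of 6 tested. The 3 late ones around Abca1 carry the name Nipsnap3b but lie inside the Abca1 gene, and that at 79.5 kb, in intron 17, held 1.07 and 0.826 CPM in monocytes, 0.394 and 1.52 CPM in RLM and 18.4 and 22.8 CPM in Kupffer cells. A region 58.4 kb upstream of Abca1, nearest to 4930522O17Rik, held 1.98 and 3.14 CPM in monocytes, 30.7 and 34.2 CPM in RLM and 24.6 and 25.2 CPM in Kupffer cells, with the Kupffer cell libraries below those of RLM as at the Abca1 promoter. It differed by 1.35 with DLL4 in BMDM. A region in Umodl1, 54.3 kb upstream of Abcg1, held 0.496 and 0.330 CPM in monocytes, 1.45 and 1.32 CPM in RLM and 15.0 and 20.5 CPM in Kupffer cells. Which gene these regions act on was not tested.

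Other genes of cholesterol handling were set beside the exporters as gene sums. Of 33 tested without Abca1 and Abcg1, 10 were called higher and 1 lower in RLM than in monocytes. Of all gene sums 6.20% were called higher and 5.80% lower. The median of the list was 0.39, beside 0.07 over all genes. In Kupffer cells against RLM 9 were higher and 1 lower (14.6% and 12.8% of all gene sums), with a median of 0.51, beside -0.07. In Kupffer cells against monocytes 16 were higher and 4 lower (18.4% and 14.4%), with a median of 1.01, beside -0.08. Nr1h3, which encodes LXR alpha, rose by 2.04 (SE 0.18) in RLM over monocytes and by 1.46 (SE 0.17) in Kupffer cells over RLM. Nr1h2, which encodes LXR beta, differed by -0.85 (SE 0.18) and -0.11 (SE 0.18) at these steps and was not called. Rxra, which encodes a partner of LXR, differed by 0.75 (SE 0.15) at the first step, not called, and rose by 2.19 (SE 0.15) at the second.

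Apoe, whose product carries exported cholesterol, rose by 1.61 (SE 0.20) in RLM over monocytes. Apoc1, its genomic neighbour and another apolipoprotein gene, rose by 4.09 (SE 0.24) in Kupffer cells over RLM. Lipa, the lysosomal cholesteryl ester hydrolase, rose at both steps, by 1.89 (SE 0.15) and 1.25 (SE 0.15). The LXR targets Lpcat3 and Mylip rose in RLM by 1.95 (SE 0.21) and 1.49 (SE 0.16), and their Kupffer cell minus RLM differences were 0.21 (SE 0.19) and 0.13 (SE 0.15). The shift between TMM and total tags given above exceeds the last 2 values, so their sign rests on the scaling. The LXR targets Scd1 and Pltp rose at both steps, by 1.49 (SE 0.17) and 1.35 (SE 0.17) in RLM and by 1.69 (SE 0.16) and 1.73 (SE 0.17) in Kupffer cells over RLM, and Srebf1 had a Kupffer cell minus RLM difference of 0.87 (SE 0.15), not called. The cholesterol synthesis genes Hmgcs1 and Sqle were lower in Kupffer cells than in monocytes, with differences of -1.19 (SE 0.21) and -2.20 (SE 0.45). With DLL4, Nr1h3 was the 1 of 33 called, higher by 1.07 (SE 0.10). That count is near the share of all gene sums called higher, 2.60%. The median of the list was 0.11, beside -0.01 over all genes. Under the 2-fold minimum, as the exporters were, Rxra differed by 0.78 (SE 0.05), Apoc1 by 0.63 (SE 0.08) and Apoe by 0.59 (SE 0.06). Other genes of the list were lower with DLL4, among them Cd36 at -0.41 (SE 0.06).

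Of 14 tested relatives in the ABCA and ABCG families, 2 fell in RLM against monocytes, beside 5.80% of all gene sums. These were Abca6, by 1.35, and Abca9, by 1.52 on the log2 scale, and the other 12 were not called. In Kupffer cells against RLM 6 fell and 2 rose, beside 12.8% and 14.6% of all gene sums. The median of the 14 was -0.78, beside -0.07 over all genes. The 2 that rose were Abcg3, by 1.34 (SE 0.18), and Abca9, by 1.08 (SE 0.29). Abca7, a close relative of Abca1, had a Kupffer cell minus monocyte difference of -1.10 (SE 0.21). Abcg3 was also the 1 of 13 called with DLL4, higher by 2.72 (SE 0.10), beside 2.60% of all gene sums called higher.

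The genes whose summed mark ran most like that of Abca1 over the 6 liver table libraries, by Pearson's r of log2 levels, were Rhobtb1, Mertk, Spic, Lrrc25 and Aebp2, with r from 0.9979 to 0.9997. Those most like Abcg1 were Skil, Pdlim4, Snx24, Rasgef1b and Dtnbp1 with r from 0.9976 to 0.9981. The r between Abca1 and Abcg1 was 0.997, which placed Abcg1 at rank 11 for Abca1 and Abca1 at rank 9 for Abcg1. Rhobtb1, at the top for Abca1, held 40.0 and 35.2 CPM in monocytes, 217 and 242 CPM in RLM and 438 and 481 CPM in Kupffer cells. In the 4 BMDM libraries the most alike were Rasgrp1, St6galnac5, Il1b, Irf1 and Mroh2a for Abca1 and Gbp9, Bach1, Cd83, Apip and Serinc3 for Abcg1. These are descriptions over libraries that form 3 groups and 2 groups, in which any gene with the same order of groups has a high r.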

How the data were processed

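The libraries were aligned to mm10, and the processing used Bowtie2 and HOMER, per the submitters' processing notes; versions are not given in the sources used here. Per the file headers, the authors merged H3K27ac peak lists of the groups into regions of 2000 bp and deposited unnormalized tag counts per region. Per the file headers, the authors called factor peaks per library with HOMER against 1 input library, and deposited each peak's signal (tags per 10 M) and fold over input as a ratio. Per the file headers, 1 input library served both SMAD4 library 2 and RBPJ library 1 of Kupffer nuclei, and some headers name another replicate than the sample title; titles were used.

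Regions were taken by the deposited gene name within 100 kb of the start. The H3K27ac counts were tested per region and as sums per gene with edgeR 4.0.16 in R 4.3.3 (filterByExpr, TMM, quasi-likelihood test, Benjamini-Hochberg adjustment over all regions or genes), in 1 fit per table. The test was tried on simulated data with known folds. Calls needed an adjusted p under 0.05 and at least 2-fold. DESeq2 1.42.0 served as an alternative. The unnamed regions, 10 in the liver table and 11 in the BMDM table, held under 0.0801% of the tags of any library. They stayed out of the gene sums but not out of the region fits. A peak was counted in both libraries when the peaks overlapped by at least 1 bp. A region was counted when each library had a peak in it, whether or not these peaks overlapped. The groups were taken from the labels. The labels do not say whether replicate numbers mark shared animals or days. The correlation of same-numbered deviations ran from -0.04 to 0.06 in the liver table and from 0.02 to 0.03 in the BMDM table. With 2 libraries per group it cannot settle this.

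Values in every library are given for promoter regions and for regions with the highest mean or the largest called change. Regions with an LXR peak in both libraries of a cell type have them in the liver table, and only some do in the BMDM table. The genes most alike are the 5 with the highest r of log2(CPM + 1) above the median level. The genes, lists, regions and tests were chosen with earlier results of these data known. Values of some list members are not reported here. Sequences and motif shares come from RefSeq promoters of GRCm38.p6, which held 1 of the 2 genes, Abca1. Alternatives were other scaling (RLE, total tags), no filter on low counts, DESeq2, 2 groups at a time, a replicate block, each library left out, no minimum fold, a 20 kb window, separate regions, stricter peak overlap and 8-fold over input.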

Additional observations from a re-analysis of the deposited data

How the results depend on the processing

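Of 364 alternative values for the 42 comparison results, 351 kept their direction and their side of the threshold, and for 161 single-region results 1549 of 1612 did, with 52 weaker and 11 stronger. None of these values reversed. Between Kupffer cells and RLM the Abca1 sum differed by 0.82 with total tags and by 0.63 within 20 kb, both under the 2-fold minimum. The Abcg1 sum differed by 1.14 over separate regions, past the minimum, and by 0.72 (without Kupffer cell library 2) to 1.10 (without Kupffer cell library 1). With no minimum fold, 1 Abca1 region was lower in Kupffer cells than in RLM and 11 were higher with DLL4, against 0 and 5. In the difference of the steps, leaving out each library gave 1 to 4 Abca1 regions with a larger later step, 0 to 2 at Abcg1, and 3 to 7 Abcg1 regions with a larger earlier step. Within 20 kb the DLL4 difference of Abca1 was 1.22. At 8-fold over input, RBPJ was shared at 2 Abca1 sites in Kupffer nuclei, against 5. With a replicate block the Kupffer cell against RLM sums differed by 1.15 at Abca1 and 0.87 at Abcg1, and 19 Abca1 regions were called, against 20; the block moved no other count by more than 1.5 times. The cause of these changes was not tested beyond the fewer regions or libraries used. With 2 libraries per group, and 7368619 tags in the smallest, weak monocyte levels rest on few tags.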
